A study of Homo sapiens with 2 samples.

Results

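The genes described here are 10 genes of iron transport and storage, TF, TFRC, TFR2, FTH1, FTL, SLC40A1, SLC11A2, HAMP, CP and STEAP3, chosen by name from the 58735 genes of a deposited read count table. Their mRNA was measured by RNA sequencing in PLC8024 cells (PLC/PRF/5), an established line of human hepatocellular carcinoma (HCC), as 1 library of wildtype cells (MAEL WT) and 1 library of cells in which MAEL, a cancer/testis gene of the germline, had been targeted by CRISPR-Cas9 with an sgRNA (MAEL KO). Sorted knockout cells were grown from single clones and the wildtype library is labelled as untreated, and both genotypes share the line and, per the methods, a serum-containing medium. With 1 library per genotype there is no replicate error, so the values below compare 2 libraries, and a difference of clone or culture cannot be told apart from the knockout. The libraries held 19904136 and 20833332 counts for MAEL WT and MAEL KO, and MAEL itself had 1 and 0 counts, so the labels could not be checked by the targeted gene. The study describes PLC8024 as its line with the highest MAEL expression, shown as protein by Western blot. The wildtype library thus held almost no MAEL message, and this difference was not examined.

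Iron circulates bound to transferrin, the product of TF, and enters cells when loaded transferrin binds a transferrin receptor and is taken up into endosomes, where STEAP3 reduces the iron and SLC11A2 (DMT1) carries it into the cytosol. Iron that is not used is stored in ferritin, a shell built from H subunits (FTH1), which oxidize iron, and L subunits (FTL), which help to lay down the mineral core. Ferroportin, the product of SLC40A1, is the iron exporter, ceruloplasmin (CP) oxidizes the exported iron so that transferrin can bind it, and hepcidin (HAMP), a peptide hormone of hepatocytes, removes ferroportin from the cell surface. The liver is a main site of iron storage and the source of most plasma transferrin, ceruloplasmin and hepcidin. Cytosolic iron also acts on several of these messages through iron-responsive elements (IREs), hairpins bound by the iron regulatory proteins IRP1 and IRP2. Binding in the 5′ UTR blocks translation, and binding in the 3′ UTR of TFRC protects the message from decay.

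TFRC and FTH1, which lay farthest apart among the abundant members, are known to carry such hairpins. Elements found in TFRC, FTH1, FTL and SLC40A1 are therefore shown, as DNA letters 5′ to 3′ on the coding strand. They were read from GENCODE 29 transcripts by a pattern of a C, 5 bases, CAGTG, any base, and 5 bases able to pair with the first 5, with G-T pairs allowed. Known elements of another form, in TFRC too, are missed by this pattern. Each line gives 30 bases on GRCh38, and the capitals mark the unpaired C and the CAGTG of the loop.
TFRC element 1, 3′ UTR, chr3:196050977-196051006, minus strand: attatCggaagCAGTGccttccataattat
TFRC element 2, 3′ UTR, chr3:196050573-196050602, minus strand: attatCgggagCAGTGtcttccataatgta
TFRC element 3, 3′ UTR, chr3:196050508-196050537, minus strand: tgtatCggagaCAGTGatctccatatgtta
TFRC element 4, 3′ UTR, chr3:196050461-196050490, minus strand: attatCgggaaCAGTGtttcccataatttt
FTH1, 5′ UTR, chr11:61967572-61967601, minus strand: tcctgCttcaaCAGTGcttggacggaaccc
FTL, 5′ UTR, chr19:48965336-48965365, plus strand: tcttgCttcaaCAGTGtttggacggaacag
SLC40A1, 5′ UTR, chr2:189580659-189580688, minus strand: aacttCagctaCAGTGttagctaagtttgg

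The pattern was searched in the transcript strand alone, and 291 of 19702 protein-coding genes (1.48%) held it somewhere in a coding transcript. The FTH1 and FTL windows shared 26 of 30 bases, and 16 of the 17 bases that the pattern spans, from the unpaired C on. The TFRC windows shared 19 to 25 of 30 bases with each other and 9 to 13 with those of the ferritins. All 3 TFRC coding transcripts with a match carried 4 matches, whereas the SLC40A1 element was in 1 of its 5 coding transcripts. TF also held a match, in the 3′ UTR of a transcript model of 20602 bases, and it is not shown. The counts are per gene and do not tell transcripts with an element from those without.

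The transferrin receptor message TFRC was 4.13-fold higher in the MAEL KO library, and the H ferritin message FTH1 was 2.06-fold lower. Of the 10 genes, 9 had at least 10 counts in at least 1 library and 7 of those were higher in MAEL KO, with SLC40A1 and FTH1 lower, where 48.0% of all tested genes were higher (34.6% with the libraries scaled by total counts, under which the same 7 members were higher). Fold changes are MAEL KO over MAEL WT after scaling by TMM factors, which assume that most genes do not differ, with 1 added to the normalized counts. The 95% intervals in brackets were converted from Clopper-Pearson intervals (exact binomial) of MAEL KO counts among those of both libraries, and they cover counting error only. The study's fold threshold, a log2 fold change of 2, was passed by 1 member, TFRC, and 7.8% of all 17887 tested genes passed it in either direction. Upward it was 1 member against 2.16% of tested genes, and downward 0 members against 5.64%. A log2 fold change of 1 was passed upward by 2 members, TFRC and TFR2, against 10.2% of tested genes, and downward by 1, FTH1, against 16.5%. Altogether 3 of 9 passed it, against 26.7% of tested genes in either direction, so the share of members was near the background. Of the 5 members with at least 5000 counts in 1 library, 2 passed 1 and 1 passed 2, where 29.6% and 3.93% of the 788 genes with such counts did. The median log2 fold change of the 9 genes was 0.44, and that of all tested genes was -0.04. The 95% binomial interval of the first, -0.36 to 1.72, comes from the ranks of the 9 fold changes. It describes spread among chosen genes, which are not replicates, and gives no test of the 2 medians. With total counts the 2 medians were 0.16 and -0.31. With total counts as the scaling, 3 of 9 members still passed 1, while 6.56% of tested genes passed it upward and 22.5% downward, and the upward share of all genes past 1 was 22.6% in place of 38.2%.

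**Figure D1:**
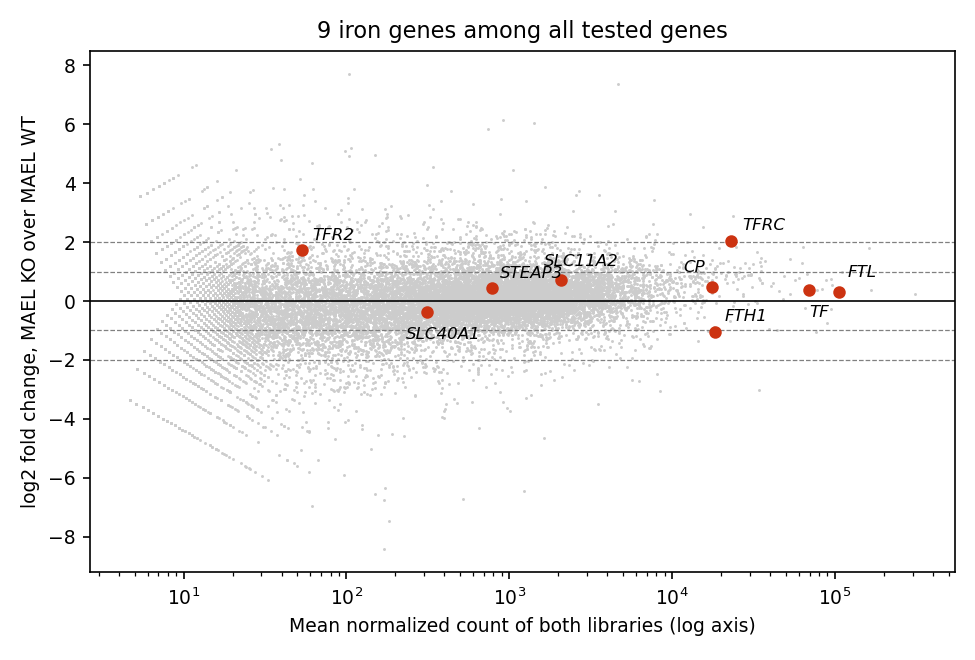
Each grey point is 1 of 17887 tested genes, with the mean normalized count of both libraries on a log axis against the log2 fold change of MAEL KO over MAEL WT, and the red points are the 9 tested iron genes. TFRC lies at 2.05, just above the dashed line at 2, and FTH1 at -1.04, while FTL and TF, the members with the most counts, lie at 0.32 and 0.36.

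The cells were checked against markers first. All 9 hepatocyte markers, among them ALB, SERPINA1 and HNF4A, had counts in both libraries, and all 9 were higher in MAEL KO with TMM factors (8 with total counts), with summed levels of 9695 CPM (counts scaled by the library total) in MAEL WT and 22087 CPM in MAEL KO. ALB, the albumin gene, had 59 counts in MAEL WT and 8550 in MAEL KO (log2 fold change 7.36). Of the lists for other cells, 5 fibroblast markers summed to 11.1 and 1.97 CPM, with DCN, LUM and COL1A2 at 3 counts or fewer, 4 endothelial markers to 17.8 and 19.5 CPM, nearly all of it PECAM1, and 6 leukocyte and macrophage markers to 66.0 and 36.2 CPM, nearly all of it LYZ. PTPRC, which marks leukocytes, had 3 and 0 counts. The 6 erythroid markers summed to 2.56 and 3.12 CPM, and HBB was at 0 in both libraries. TF, CP, TFR2 and HAMP are known as hepatocyte genes, and the part of these marker differences in their values was not tested. Fewer cells of a type and less RNA per cell cannot be told apart in such bulk libraries.

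Transferrin was at place 16 of all genes by counts in both libraries, and by FPKM at place 240 in MAEL WT and 265 in MAEL KO. TF (ENSG00000091513, chr3:133745956-133796640, plus strand) had 65436 counts in MAEL WT and 72635 in MAEL KO, or 3288 and 3486 CPM. The libraries were close on this scale, and TF was slightly higher in MAEL KO after scaling. The log2 fold change was 0.36 (95% interval 0.35 to 0.38), and 0.08 when the libraries were scaled by their totals. That scaling moved the median of all tested genes by -0.27, to -0.31. The level of TF per length was 114 FPKM (fragments per kilobase, scaled by library) in MAEL WT and 146 in MAEL KO, but the table gives the gene a length of 26199 bases, 12.5 times its coding sequence of 2094 bases.

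Both receptor messages were higher in MAEL KO past a log2 fold change of 1. TFRC (ENSG00000072274, chr3:196027183-196082189, minus strand) encodes transferrin receptor 1, the main receptor for iron uptake in dividing cells. It had 9692 counts in MAEL WT and 34575 in MAEL KO, and 56.2 and 231 FPKM. The MAEL KO library was thus several times higher, and TFRC moved from place 630 to place 151 among all genes by FPKM. The log2 fold change was 2.05 (95% interval 2.01 to 2.08), which 1.98% of tested genes exceeded. Among the 788 genes with at least 5000 counts in 1 library, 20 (2.54%) were higher by 2 or more, TFRC included, and 21.8% by 1 or more. Its place just above 2 depended on the scaling, since the value was 2.04 with DESeq2 size factors, 2.01 with factors from protein-coding genes alone, 1.9996 with upper-quartile factors and 1.77 with total counts.

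TFR2 (ENSG00000106327, chr7:100620416-100642779, minus strand) encodes transferrin receptor 2, which hepatocytes use to sense loaded transferrin. It had 26 counts in MAEL WT and 76 in MAEL KO, or 0.235 and 0.791 FPKM. The direction was that of TFRC, at a far lower level in both libraries. The log2 fold change was 1.72, with a wide counting interval of 1.10 to 2.46. The ratio of TFRC to TFR2 counts was 373 in MAEL WT and 455 in MAEL KO, a 1.22-fold difference.

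**Figure D2:**
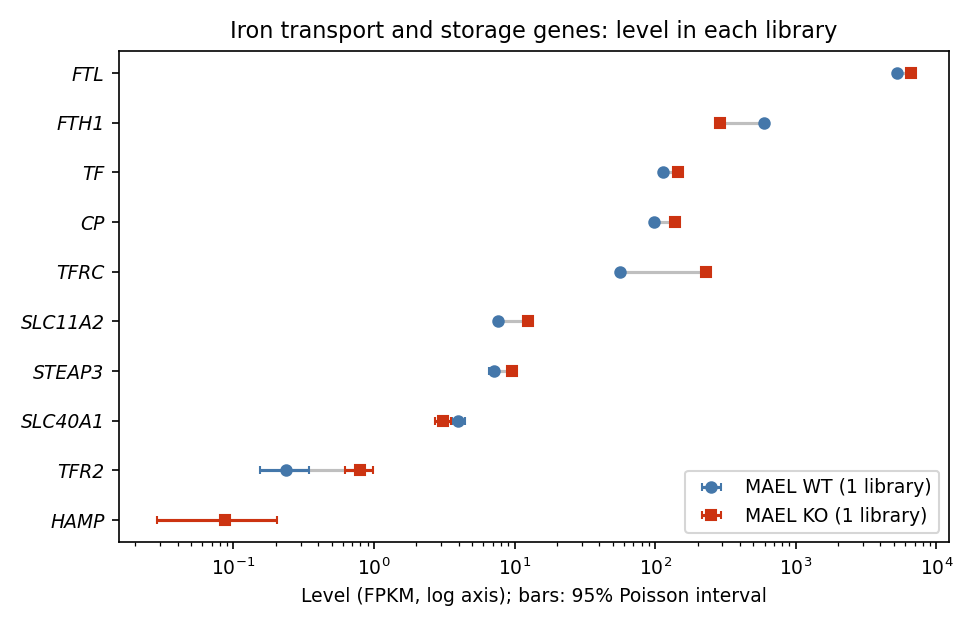
Levels of the 10 genes are plotted as FPKM on a log axis, with blue circles for the MAEL WT library, red squares for the MAEL KO library and bars for 95% Poisson intervals of the counts. FTL was highest in both libraries, TFRC passed TF and CP in MAEL KO, and HAMP, listed at 0 in MAEL WT, has a point for MAEL KO alone.

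The genes that act on iron inside the endosome were moderately higher in MAEL KO. STEAP3 (ENSG00000115107, chr2:119223831-119265652, plus strand), the endosomal reductase that turns ferric into ferrous iron, had 710 and 831 counts, or 7.12 and 9.61 FPKM. The log2 fold change was 0.44 (95% interval 0.29 to 0.58), and 0.16 with total counts. SLC11A2 (ENSG00000110911, chr12:50979401-51028566, minus strand), the carrier for ferrous iron, had 1688 and 2376 counts, or 7.61 and 12.4 FPKM. Its log2 fold change was 0.70 (95% interval 0.61 to 0.79), and 0.43 with total counts. Both were higher in MAEL KO under each scaling tried, and neither reached a log2 fold change of 1. In MAEL WT their FPKM levels had overlapping counting intervals, and in MAEL KO SLC11A2 was above STEAP3. Transcripts of SLC11A2 with and without its known 3′ IRE are counted together here, and the pattern above was not found in any of its coding transcripts.

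The ferritin subunits differed in direction. FTH1 (ENSG00000167996, chr11:61959718-61967660, minus strand) had 26366 counts in MAEL WT and 11059 in MAEL KO, or 594 and 287 FPKM. The MAEL KO library was the lower one on both scales, and FTH1 went from place 33 to place 112 among all genes by FPKM. The log2 fold change was -1.04 (95% interval -1.08 to -1.01), and 15.6% of tested genes were lower than that. Among the 788 genes with at least 5000 counts in 1 library, 61 (7.74%) were lower by 1 or more, and 1.4% by 2 or more. With total counts the value was -1.32.

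FTL (ENSG00000087086, chr19:48965301-48966878, plus strand) had 100888 counts in MAEL WT and 109047 in MAEL KO, or 5253 and 6551 FPKM. It held place 3 among all genes in MAEL WT and place 4 in MAEL KO. The log2 fold change was 0.32 (95% interval 0.31 to 0.33) and 0.05 with total counts, and as CPM FTL was at 5069 and 5234. The ratio of the subunits does not depend on the scaling of the libraries. FTH1 made up 20.7% of FTH1 and FTL counts in MAEL WT (95% Clopper-Pearson interval 20.5% to 20.9%) and 9.21% in MAEL KO (9.04% to 9.37%). There were 3.83 FTL counts for each FTH1 count in MAEL WT and 9.86 in MAEL KO, and per length, from FPKM, 8.85 and 22.8. Adding the counts of the ferritin pseudogenes to their parents left the FTH1 share at 20.9% and 9.30%. Both subunits carry the nearly identical 5′ hairpin shown above. Binding there acts on translation, which counts of mRNA do not measure, and any part of it in these values was not tested.

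**Figure D3:**
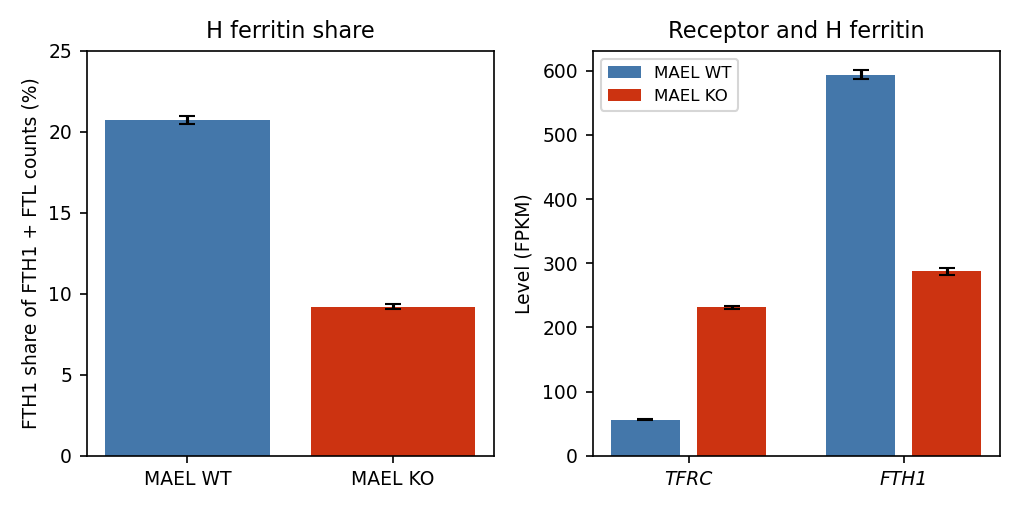
The left panel gives the share of FTH1 among FTH1 and FTL counts in each library in percent, with 95% Clopper-Pearson intervals, and the right panel the FPKM level of TFRC and FTH1 with 95% Poisson intervals. The H share is 20.7% in MAEL WT and 9.21% in MAEL KO, while TFRC goes from 56.2 to 231 FPKM and FTH1 from 594 to 287.

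Set side by side, the receptor and the H subunit came close in MAEL KO. TFRC was at 0.0946 of the FTH1 level per length in MAEL WT and at 0.805 in MAEL KO, and the ratio of their counts differed 8.51-fold between the libraries. Against TF, the ratio of TFRC counts differed 3.21-fold. These ratios are free of library scaling and show unequal change, not which gene changed.

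Of the genes of iron export, SLC40A1 was lower and CP higher in MAEL KO, neither past a log2 fold change of 1. SLC40A1 (ENSG00000138449, chr2:189560579-189583758, minus strand), the ferroportin gene, had 377 and 254 counts, or 3.98 and 3.09 FPKM. It was at a log2 fold change of -0.36 (95% interval -0.59 to -0.13). With total counts the value was -0.63. CP (ENSG00000047457, chr3:149162410-149222055, minus strand) had 15740 and 19141 counts, or 98.6 and 138 FPKM. It was higher in MAEL KO at a log2 fold change of 0.49 (95% interval 0.46 to 0.52), or 0.22 with total counts. There were 41.8 CP counts for each SLC40A1 count in MAEL WT and 75.4 in MAEL KO.

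Hepcidin was hardly seen. HAMP (ENSG00000105697, chr19:35280716-35285143, plus strand) had 0 counts in MAEL WT and 5 in MAEL KO, or 0.240 CPM. At these depths 3 counts, the floor used for a gene at 0, correspond to 0.151 CPM in MAEL WT. The lower end of the counting interval of HAMP was a log2 fold change of 0.08, and -0.19 with total counts, so the difference was at the limit of this depth. The gene did not pass the count filter and is in none of the medians and counts.

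**Figure D4:**
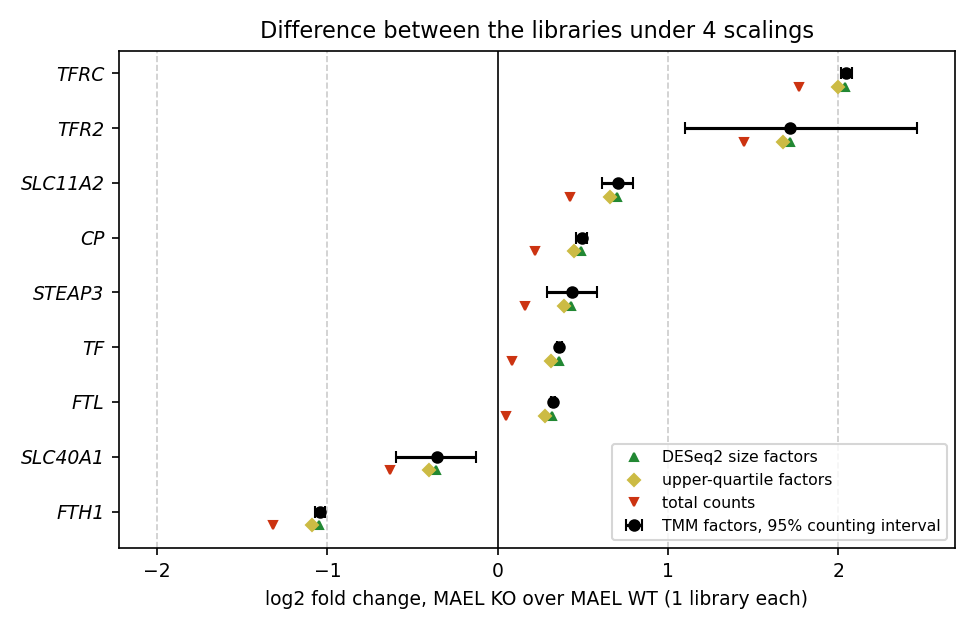
Log2 fold changes of MAEL KO over MAEL WT for the 9 tested genes are plotted as black circles (TMM factors) with 95% counting intervals, and the colored symbols give the same genes under 3 other scalings. All 9 kept their direction, and total counts moved each gene to the left, TFRC from 2.05 to 1.77 and FTL from 0.32 to 0.05.

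By FPKM the order of the 10 genes in MAEL WT was FTL, FTH1, TF, CP, TFRC, SLC11A2, STEAP3, SLC40A1, TFR2 and HAMP. In MAEL KO TFRC moved from place 5 to place 3, ahead of TF and CP, and the rest of the order was the same. SLC11A2 and STEAP3 in MAEL WT were the only neighbors with overlapping counting intervals in these 2 libraries. Per kilobase of the longest coding sequence, TF was at place 3 in MAEL WT and place 2 in MAEL KO, where it was ahead of FTH1 and TFRC. Together the 10 genes took 1.11% of all counts in MAEL WT and 1.20% in MAEL KO. With 2 libraries no likeness of pattern between genes can be measured, so no other gene is named for one.

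Some of these genes share ground with others in the genome, which matters because the sources used here do not state whether reads were counted by strand. SRPRB overlaps TF on the same strand and had 2526 and 1601 counts, 3.86% and 2.20% of those of TF. HPS3 overlaps CP on the opposite strand with 1021 and 592 counts, and BEST1 overlaps FTH1 on the opposite strand with 235 and 31. All 3 were lower in MAEL KO, at log2 fold changes of -0.45, -0.58 and -2.68, and their counts were at most 6.49% of those of the iron gene. The other 6 overlapping genes had at most 152 counts each, the most in AC080128.1, a pseudogene within TF.

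The wider iron pathway was described by 8 lists of genes, each beside the background given above. Of 92 tested genes outside the 10 members, 46 were higher and 46 lower in MAEL KO. With total counts 56 (60.9%) were lower, where 65.4% of all tested genes were. Of the 92, 18 (19.6%) passed a log2 fold change of 1, against 26.7% of all tested genes. Their median was -0.01. The medians of the lists lay between -0.30 for the messages with a 5′ IRE and 0.41 for the genes of iron sensing. The 95% binomial intervals of these 2 medians were -1.82 to 0.32 and -0.15 to 1.27. With 6 and 7 tested genes they run from the lowest to the highest gene of each list, so they cannot tell the medians apart. The order of the lists depended on the count filter, since uptake was lowest at -0.44 with no filter. With at least 100 counts, which leaves out HEPH and also FLVCR2, named after its value had been seen, the list of export and copper supply was highest at 0.47.

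The list of transferrin-bound and other iron uptake, in which the members are not repeated, had 16 tested genes. Of these 11 (68.8%) were lower, against 52.0% of all tested genes with TMM factors. With total counts 11 were lower as well, against 65.4% of all tested genes. Of the 16, 7 were lower past a log2 fold change of 1, against 16.5% of tested genes. CD163, a macrophage receptor for hemoglobin bound to haptoglobin that is also on the macrophage marker list, had 52 counts in MAEL WT and 11 in MAEL KO (log2 fold change -1.94, 95% interval -3.12 to -1.07). SLC22A17, a receptor for lipocalin, had 98 and 24 counts (-1.78), and SCARA5, a receptor for ferritin, 300 and 77 (-1.74). The other 4 were SLC48A1, which carries heme, at -1.57, the reductases STEAP2 at -1.15 and CYBRD1 at -1.02, and LRP1, which takes up heme bound to hemopexin, at -1.01. LRP1 was the best counted of the 7, with 11017 and 4727 counts. SLC48A1, STEAP2, CYBRD1 and LRP1 were named after their values had been seen. Higher in MAEL KO were 5 genes. HP, which encodes haptoglobin, had 1 and 38 counts (4.44, 95% interval 2.89 to 10.8) and met the count filter through MAEL KO alone. The others were EXOC6 at 0.99, SLC39A14 at 0.68, HPX at 0.39 and SNX3 at 0.33, also named after their values had been seen. SLC39A14 was the best counted of the list, with 11064 and 15330 counts.

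The iron sensing list also holds genes that load iron into ferritin or release it, and 7 were tested. Of these 6 were higher, where 48.0% of all tested genes were (5 with total counts, where 34.6% were). Past 1 were 2 of them, against 10.2% of tested genes, and 0 with total counts, against 6.56%. ACO1, which encodes IRP1, had 2074 and 4260 counts (1.25, 95% interval 1.17 to 1.33). NCOA4, the receptor that carries ferritin to lysosomes, had 1910 and 3987 counts (1.27, interval 1.19 to 1.35). IREB2, which encodes IRP2 and was named after its value had been seen, was at 0.61, and FBXL5, the ligase subunit that removes IRP2 when iron is present, was the 1 lower gene at -0.15.

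Messages known to carry an IRE were split in direction. Of 6 with a 5′ element 4 were lower, where 52.0% of all tested genes were (5 with total counts, where 65.4% were), among them FTH1 and SLC40A1 with the values above and ALAS2, the erythroid heme enzyme, at -1.82 with 15 and 3 counts (95% interval -4.54 to -0.29). FTL was higher, and EPAS1 was at 0.01 with an interval that includes no difference (-0.04 to 0.06). Of 4 with a 3′ element TFRC and SLC11A2 were higher, and CDC14A and CDC42BPA were lower at -0.38 and -0.90.

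**Figure D5:**
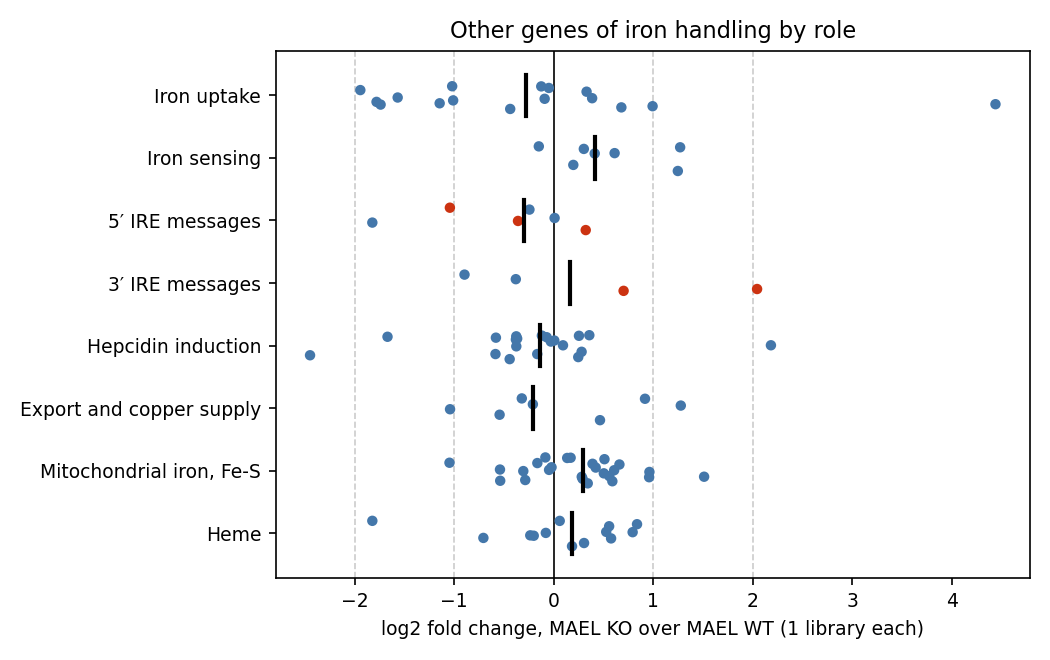
Log2 fold changes of MAEL KO over MAEL WT are plotted for the tested genes of 8 lists by role, with members of the 10 genes in red, other genes in blue and the list median as a black bar. The medians lie between -0.30 (5′ IRE) and 0.41 (iron sensing), in lists of 6 and 7 tested genes, and HP stands far to the right at 4.44.

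Of 20 tested genes on the hepcidin list 13 were lower, or 65% against 52.0% of tested genes (17 with total counts, or 85% against 65.4%). The list holds inducers, inhibitors and BMP targets alike, so this count gives no direction of signaling. Among its BMP targets ID1 was at 0.28, SMAD6 at 0.36 and SMAD7 at -0.38, named after their values had been seen. Past 1 were 3, or 15% against 26.7% of tested genes. BMP6 and BMP2, the ligands that induce hepcidin in hepatocytes, were lower, BMP6 with 2042 and 554 counts (-1.67, 95% interval -1.81 to -1.54) and BMP2 with 49 and 7 (-2.45, interval -3.98 to -1.45). HJV, their coreceptor, had 4 and 19 counts (2.18, interval 0.87 to 4.47). BMP2 met the count filter through MAEL WT alone and HJV through MAEL KO alone.

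Genes of iron export and of the copper supply to ceruloplasmin numbered 7 tested, 3 higher and 4 lower, and 2 passed 1, where 26.7% of tested genes did. ATP7B, the pump that loads copper onto ceruloplasmin, had 1066 and 2236 counts (1.28, 95% interval 1.17 to 1.39). HEPH, a ferroxidase related to CP, had 44 and 18 counts (-1.04, interval -1.96 to -0.26). Of 25 tested genes of mitochondrial iron and iron-sulfur assembly 16 (64.0%) were higher against 48.0% of all tested genes (14 with total counts, or 56.0% against 34.6%), and 2 passed 1, where 26.7% of tested genes did. These were IBA57, an assembly factor, with 183 and 453 counts (1.51), and SLC25A37, which carries iron into mitochondria, with 1304 and 545 (-1.05). Of 13 tested genes of heme synthesis and breakdown 8 (61.5%) were higher against 48.0% of all tested genes (6 with total counts, or 46.2% against 34.6%). The 1 gene past 1 (7.69%, against 26.7%) was ALAS2, which met the count filter through MAEL WT alone. CPOX, an enzyme late in heme synthesis, was the highest at 0.84.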

How the data were processed

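The authors isolated total RNA and sequenced it on a HiSeq platform. They deposited read counts per gene, whole numbers without normalization, and FPKM values. The submitters' processing notes name HISAT2 2.0.5, featureCounts 1.5.0-p3 and the build hg19, whereas 58690 of the 58735 genes carry the GRCh38 coordinates of GENCODE 29. The deposited FPKM values equal the count divided by gene length and a library size of 1.0989 (MAEL WT) and 0.910 (MAEL KO) times the total, as DESeq2 size factors give. Strand and the treatment of reads with several matches are not given in the sources used here.

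Counts were scaled by TMM factors (1.10 and 0.909) fitted on the whole table (edgeR 4.0.16, R 4.3.3). DESeq2 1.42.0 gave alternative size factors. Fold changes used 1 added to counts normalized to the mean effective library size, for genes with at least 10 counts in 1 library. With 1 library per genotype no test was run and no p-value is given. The intervals of genes, levels and the FTH1 share, and the floors, cover counting error only. Reads counted without molecular identifiers need not be separate molecules. Intervals of medians come from the ranks of fold changes within a list, so they describe spread between genes and hold no counting error. Python 3.11.15, NumPy 2.4.6, SciPy 1.17.1, pandas 2.3.3 and matplotlib 3.10.9 were used. The TMM fold changes and their counting intervals were tried on simulated Poisson counts in which few genes differed. That simulation does not cover libraries in which 26.7% of tested genes pass a log2 fold change of 1, nor the other steps.

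The members and lists were chosen with earlier results of these data known. Named are all members, genes overlapping them and, in each wider list, up to 3 genes at each end past a log2 fold change of 1, otherwise its extremes, and names outside this rule are marked or stand in an IRE list. Of 101 wider names 97 were in the table and 92 were tested. Alternatives were other scalings, the FPKM ratio with 0.01 added, 0.1 or 5 added to counts, other count filters, and pseudogene counts added to the ferritins.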

Additional observations from a re-analysis of the deposited data

How the results depend on the processing

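No paired analysis was possible because each genotype has 1 library, and for the same reason no library could be left out. Of 82 values of the 9 tested members under the alternatives, 64 stayed within their counting interval, 18 moved outside it and 0 changed sign. The count of members past a log2 fold change of 2 was 1, and it was 0 with total counts, 0 with upper-quartile factors, where TFRC was at 1.9996, and 2 without a count filter, which lets in HAMP. Of the wider iron genes, 3 passed 2 and 18 passed 1. The 3 were HP, HJV and BMP2, and each met the count filter through 1 library alone. With total counts 6 passed 2, with 0.1 added 5, and with at least 100 counts, a filter that leaves out low genes such as HP and HJV, 0, where 11 passed 1. Their median of -0.01 was -0.28 with total counts, near the shift of -0.27 of all tested genes, and 0.06 for genes with at least 100 counts. Of 72 medians of single lists 1 moved beyond its interval and 3 changed sign. These 3 were the 3′ IRE list at -0.11 and the heme list at -0.09 with total counts, and the list of export and copper supply at 0.47 with at least 100 counts. The FTH1 to FTL ratio of counts, 0.261 in MAEL WT and 0.101 in MAEL KO, was 0.113 and 0.0439 per length, because the gene lengths differ. The order per kilobase of coding sequence was added after the data had been seen, and it placed TF at 2, FTH1 at 3 and TFRC at 4 in MAEL KO. Depth limits HAMP and TFR2.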

Other observations

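Processed pseudogenes of the ferritins are listed in the table as rows of their own. Of 25 FTH1 pseudogenes 16 had any count and 5 passed the filter, and of 16 FTL pseudogenes 5 had any count and 1 passed. The FTH1 pseudogenes together had 254 counts in MAEL WT and 128 in MAEL KO, 0.963% and 1.16% of the FTH1 counts, and all 5 that passed were lower in MAEL KO. Best counted was FTH1P2, with 105 and 49 counts, a log2 fold change of -0.88 beside -1.04 for FTH1. The FTL pseudogenes had 33 and 26 counts. Reads of these copies and of their parents can be mistaken for each other, and the share that was cannot be read from counts per gene.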
